A study of Arabidopsis thaliana with 6 samples.

Results

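In whole Arabidopsis thaliana seedlings, 12 nuclear genes were selected because their array intensity was at least 200 without scutellarin and, with it, at most 0.5 of the level without it. They were chosen by the deposited linear intensities of both groups. A probe set (the group of short probes that reads a transcript on the Affymetrix ATH1 array) had to name 1 gene on chromosomes 1 to 5, to read at least 200 on its lowest mock array, and to read on its highest scutellarin array at most 0.5 of that lowest mock value. Of 22746 probe sets, 34 met both thresholds. Of these, 16 were not listed in the platform annotation and 1 named several genes, which left 17. Another 5 were left out by family: 2 class III peroxidases and 1 gene each of the germin-like, berberine bridge enzyme-like and lipid transfer protein families. The remaining 12, of 13217 nuclear genes with a single-gene probe set, were DFR, EXLB1, OCT1, STOMAGEN, CRR41, PAP85 and 6 genes that the annotation gives by gene number only.

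All samples were 10-day-old seedlings of the Columbia background, grown from seed on wet filter paper. Both groups received 1% DMSO, the solvent. The mock group (0 µM) had nothing else, and the other group had 100 µM scutellarin, a flavone glucuronide found in skullcaps and other plants, for 10 days. Each group held 3 samples from independent experiments, each pooled from 100 whole seedlings, so leaf, stem and root RNA were read together. Median intensities over all probe sets lay between 144.8 and 162.3 on the 6 arrays. Because the same contrast chose the 12 genes, their differences are given as a description, and any test on them is no separate support. In tissue read as a whole, fewer cells of a type and less RNA per cell cannot be told apart.

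The 6 named genes act in different places. Dihydroflavonol 4-reductase (DFR) makes the precursors of the coloured anthocyanins, which seedlings accumulate in strong light and under stress. STOMAGEN is a secreted peptide made by leaf mesophyll that promotes the formation of stomata, the pores of the leaf surface, and CRR41 is needed to assemble the chloroplast NADH dehydrogenase-like (NDH) complex, which returns electrons to the plastoquinone pool around photosystem I. OCT1 is a plasma membrane carrier of organic cations and carnitine, EXLB1 belongs to the expansin-like proteins of the cell wall, and PAP85 is a seed storage protein of the vicilin type.

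DFR read 467.4, 670.7 and 547.1 on the mock arrays and 138.1, 25.4 and 110.0 on the scutellarin arrays. Its mean intensity was therefore 561.7 ± 102.5 (SD, n = 3) in mock seedlings and 91.2 ± 58.7 with scutellarin, a log2 change of -2.93 ± 0.48 (SE). Scutellarin replicate 2 stood well below the other 2 treated arrays, and without it the log2 change was -2.17. Every treated reading lay below the median intensity of its array, and with 32 added before log2 the change was -2.40. DFR was the only 1 of the 11 listed genes of anthocyanin and flavonoid synthesis that could be followed. Of the others, 3 had a named probe set, all among the lowest 30% of probe sets by mean intensity, which were left out of the fit, and the remaining genes had no single named probe set.

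EXLB1 read 741.6, 823.8 and 869.0 in mock seedlings against 243.8, 131.7 and 216.2 with scutellarin, a log2 change of -2.09 ± 0.22. Every treated array was below every mock array by a wide margin, the highest treated value being 32.9% of the lowest mock value. The EXLA genes form the other branch of the expansin-like proteins. EXLA1 read 190.3 ± 35.9 and 211.6 ± 79.2 in the 2 groups (log2 change 0.10, 95% interval -0.48 to 0.68), and EXLA2 and EXLA3 lay below the intensity filter.

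OCT1 read 540.5, 866.4 and 682.8 in mock seedlings and 157.6, 114.7 and 194.3 with scutellarin, a log2 change of -2.17 ± 0.23. Its mean with scutellarin was 22.3% of the mock mean. Of the other 5 organic cation transporter genes, OCT4 and OCT5 were measured and neither passed the test (limma, log2 change -0.43, 95% interval -0.89 to 0.04, and 0.15, -0.12 to 0.42). The mock and scutellarin arrays overlapped for OCT4, which read 163.7 to 247.2 and 141.8 to 170.1.

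STOMAGEN read 1072.5, 1008.0 and 1114.0 in mock seedlings and 494.6, 357.2 and 462.5 with scutellarin, a log2 change of -1.29 ± 0.15. The mock arrays were close together, with a coefficient of variation of 5.02%, and the treated mean was 41.1% of theirs. None of the other 5 epidermal patterning factor genes had a single named probe set. Of 5 guard cell and stomatal lineage markers, 2 were measured, the transcription factor genes SPCH and FMA (also called FAMA), and neither passed the test (adjusted p = 0.157 and 0.415). Their summed intensity was 232.3 to 253.4 on the mock arrays and 153.2, 241.9 and 133.2 on scutellarin arrays 1 to 3. For the sum, only scutellarin replicate 2 reached the mock range. SPCH alone read 105.1 to 121.7 on mock arrays and 76.69, 102.8 and 45.65 on scutellarin arrays, all below mock. FMA alone read 110.6 to 136.0 on mock arrays and 76.5, 139.0 and 87.57 on scutellarin arrays. These markers read stomatal lineage cells and not the mesophyll that makes STOMAGEN. The part of cell numbers in the STOMAGEN difference was not tested.

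CRR41 read 241.5, 233.4 and 233.5 in mock seedlings and 102.3, 109.6 and 113.3 with scutellarin. This was the smallest difference of the 12 (log2 change -1.12 ± 0.19) and also 1 of the most even, with coefficients of variation of 1.97% and 5.18% in the 2 groups. Some other genes for subunits of the NDH complex, or for factors related to it, were also lower. By their symbols, 17 genes were listed as NDH subunits (Ndh, Pns) and 11 as chlororespiratory reduction (CRR) factors. Of the 6 measured besides CRR41, 4 fell and none rose in limma, where 9.11% of all 15922 tested probe sets fell and 10.3% rose. The RNA editing factor genes CRR21 and CRR28, whose products act on plastid NDH transcripts, had log2 changes of -1.19 ± 0.22 (adjusted p = 0.00275) and -1.16 ± 0.25 (adjusted p = 0.00674).

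**Figure D1:**
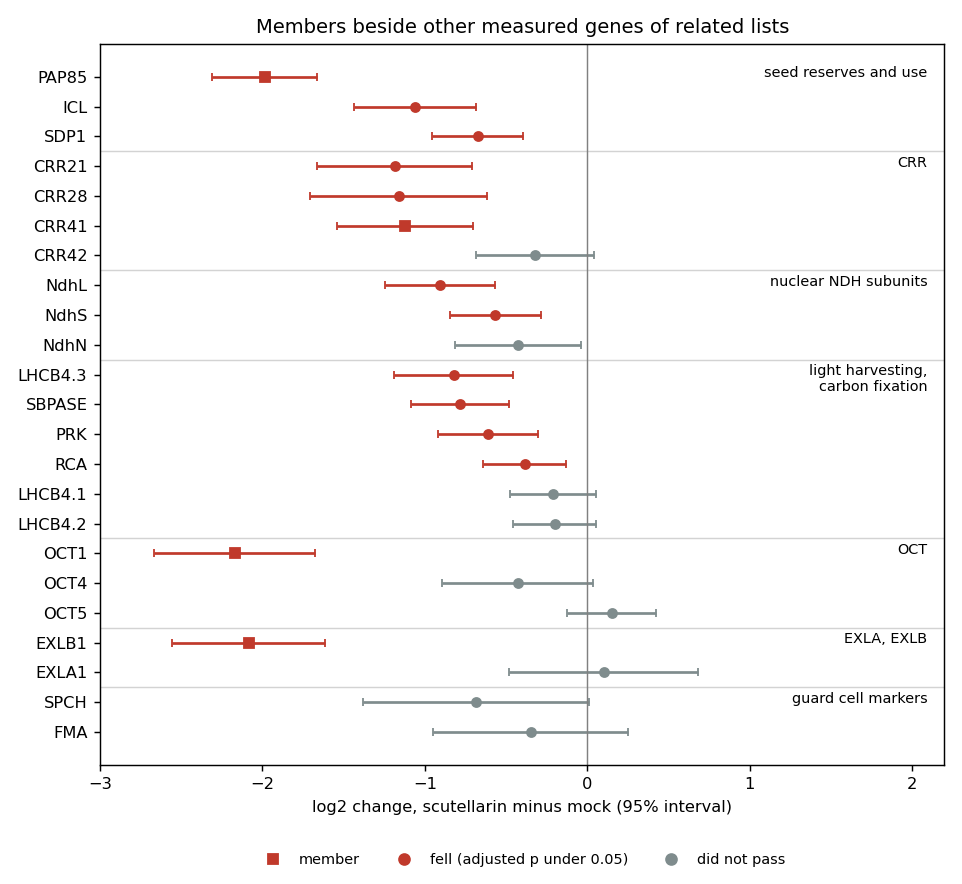
Log2 change (scutellarin minus mock, horizontal axis, with 95% interval, n = 3 arrays a group) of measured genes in lists related to the named members. Squares are members, red circles are other genes that fell and grey circles did not pass. OCT1 is at -2.17 and OCT5 at 0.15, EXLB1 is at -2.09 and EXLA1 at 0.10, and CRR41 at -1.12 lies beside CRR21 and CRR28; these differences between genes were not tested.

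NdhL, a membrane subunit of the complex, fell by 0.91 ± 0.15 (adjusted p = 0.00165). NdhS, the subunit near the ferredoxin binding site, fell by 0.57 ± 0.13 (adjusted p = 0.00969), but its call was lost without mock replicate 2 (adjusted p = 0.0583) and with no variance trend (adjusted p = 0.0540), in a range of 0.00783 to 0.0583 over its alternatives. CRR42 and NdhN did not pass (log2 change -0.32 and -0.43, adjusted p = 0.201 and 0.117). CRR21 and CRR28 were lower on all treated than on all mock arrays, from 317.0 to 451.6 down to 132.6 to 202.3 for CRR21 and from 159.6 to 195.5 down to 64.1 to 101.4 for CRR28. Both missed the selection, CRR21 on the gap between groups and CRR28 on the gap and on its mock level. These families were put together after the members' values were seen. Of 26 listed genes for light harvesting and carbon fixation, 6 were measured, of which 4 fell and 2 missed the threshold with negative values. Beside these, 9.11% of all tested probe sets fell, and 12.3% of the single-gene nuclear ones reading at least 200 on every mock array. The median log2 change of the 6 genes was -0.50, against -0.04 over all tested probe sets. Among the 4 were SBPASE (sedoheptulose-bisphosphatase, -0.78 ± 0.14), LHCB4.3 (a light harvesting protein gene, -0.82 ± 0.17) and PRK (phosphoribulokinase, -0.61 ± 0.14, not called in the fit with no variance trend). The other was RCA (rubisco activase, -0.38 ± 0.12, adjusted p = 0.0383), whose call was lost in 9 of 15 alternative fits, among them those leaving out replicate 2 or 3 of either group. Its adjusted p reached 0.405 after quantile normalization, with a change of -0.13.

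PAP85 read 1919.8, 1517.5 and 1748 in mock seedlings and 384.1, 491.6 and 433.1 with scutellarin, a log2 change of -1.99 ± 0.15. The highest treated array was 32.4% of the lowest mock array. Of the other 17 genes listed for seed reserves and their use, 2 were measured and both fell, beside 9.11% of all tested probe sets. ICL, isocitrate lyase of the glyoxylate cycle, went from 4594.9 ± 837.5 to 2212.2 ± 453.3 (log2 change -1.06 ± 0.17, adjusted p = 0.00121), and SDP1, the oil body lipase gene, changed by -0.67 ± 0.13 (adjusted p = 0.00346). The 4 other listed seed markers had no single named probe set, so PAP85 was the only seed marker read.

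The other 6 members carry no descriptive name in the annotation. AT1G73120 read 5333.6, 5822.1 and 7966.4 in mock seedlings and 1262.5, 1231.7 and 1323.4 with scutellarin, a log2 change of -2.30 ± 0.15. Its treated arrays agreed closely (coefficient of variation 3.67%) while its mock arrays varied more (22.0%). It also had the widest gap between groups of all members, its highest treated value being 24.8% of its lowest mock value.

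AT1G76960 read 252.6, 312.0 and 364.2 in mock seedlings and 98.5, 52.5 and 92.8 with scutellarin, a log2 change of -1.97 ± 0.27. AT1G24575 read 837.3, 1230.3 and 947.4 against 375.2, 281.9 and 328.5 (-1.60 ± 0.18). In both, scutellarin replicate 2 was the lowest array, as it was for DFR, EXLB1 and OCT1. AT5G42680 read 271.2, 230.9 and 275.4 against 94.6, 104.4 and 80.0 (-1.48 ± 0.21).

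AT1G32740 read 260.1, 250.1 and 259.4 in mock seedlings and 122.4, 100.4 and 82.5 with scutellarin, a log2 change of -1.35 ± 0.21. AT2G04790 read 364.1, 444.3 and 323.0 against 147.3, 152.0 and 144.8 (-1.34 ± 0.18). The 2 genes differed in where their spread lay: the mock arrays of AT1G32740 had a coefficient of variation of 2.18% and its treated arrays of 19.7%, whereas AT2G04790 had 16.4% in mock and 2.45% in treated seedlings.

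**Figure D2:**
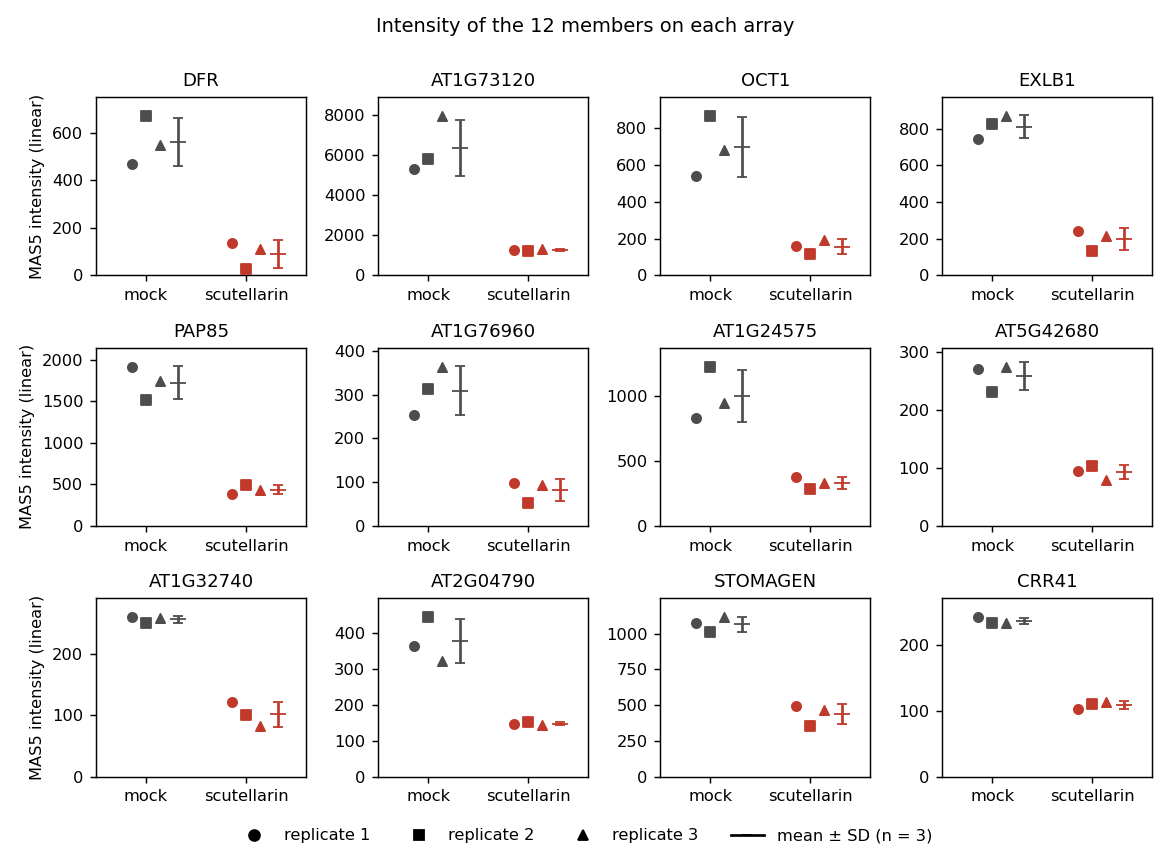
Linear MAS5 intensity (vertical axis, from 0, a separate scale for each gene) of the 12 members on the 3 mock (grey) and 3 scutellarin (red) arrays, with mean and SD beside the points. The groups are apart for every gene, as the choice of members requires. The treated DFR arrays spread from 25.4 to 138.1, while those of AT2G04790 lie between 144.8 and 152.0.

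The 12 genes together ranged from a treated mean of 16.2% of mock (DFR) to 45.9% (CRR41), with a median log2 change of -1.79. All 12 were called lower by limma at an adjusted p under 0.05, as were 9.11% of tested probe sets. All 12 had treated arrays below every mock array, as had 18.6% of tested probe sets. These counts follow from how the members were chosen. Of 4773 single-gene nuclear probe sets that read at least 200 on every mock array, 0.356% met the second threshold, and 12.3% were called lower. The same thresholds turned round, for genes raised by scutellarin, found 146 single-gene nuclear probe sets against 17.

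**Figure D3:**
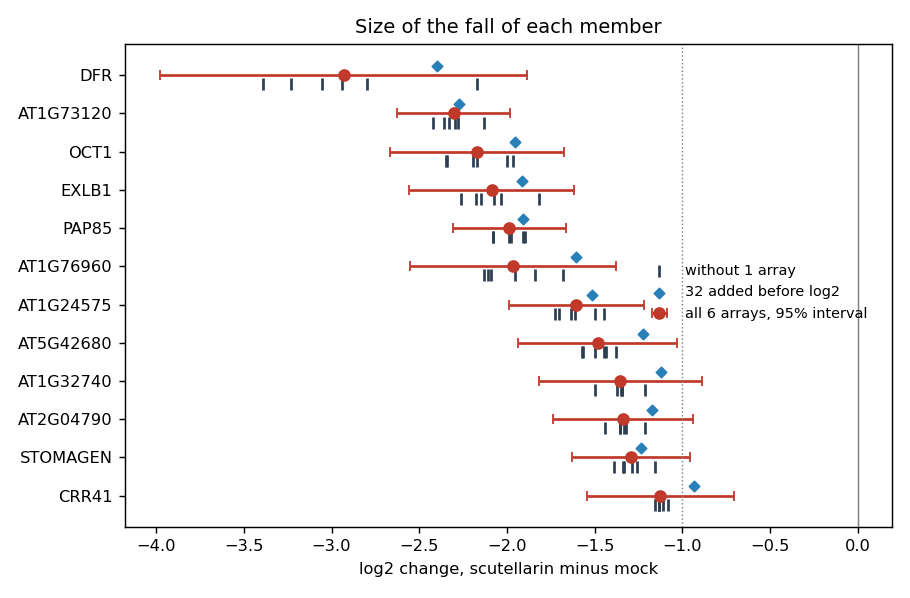
Log2 change of each member (horizontal axis, scutellarin minus mock) with its 95% interval from limma (red), with 1 array left out (dark ticks) and with 32 added before log2 (blue). All plotted values lie below 0. With all 6 arrays they run from -2.93 for DFR to -1.12 for CRR41 (-0.93 with 32 added), and the ticks of DFR reach from -3.39 to -2.17.

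In the order of size, the 95% intervals of all 11 adjacent pairs of members overlapped. Adjacent pairs are the closest ones, so overlap there was likely from the outset. Of all 66 pairs of members, 52 had overlapping intervals. Overlap of intervals is not a test, and differences between members were not tested. DFR had the widest interval, -3.98 to -1.88, which overlapped with those of 7 other members. The interval of CRR41, -1.54 to -0.71, overlapped with those of 6 others.

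Members just inside the threshold on the gap between groups were STOMAGEN, AT1G32740 and CRR41, whose highest treated array was 0.491, 0.490 and 0.485 of the lowest mock array. Just outside lay CHI (AT2G43570, a chitinase gene), AT3G44970 and AT4G10910, at 0.501, 0.510 and 0.514. On the level threshold, the lowest mock values just inside were 230.9 (AT5G42680), 233.4 (CRR41) and 250.1 (AT1G32740), and those just outside were 195.9 (AT4G37290), 170.9 (AT1G52000) and 143.7 (AT5G22580).

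The members did not all vary in the same way within a group. On scutellarin arrays, replicate 2 was the lowest for 7 members and replicate 1 the highest for 6. On mock arrays, replicate 1 was the lowest for 6 members. These 6 (DFR, AT1G73120, OCT1, EXLB1, AT1G76960 and AT1G24575) were also all among the 7 that were lowest on scutellarin replicate 2. Among the 4773 probe sets with at least 200 on every mock array, 37.2% were lowest on mock replicate 1. On scutellarin replicate 2, 31.3% were lowest, and 16.3% were lowest on both of these arrays. Among the 589 of them called lower, these shares were 31.4%, 23.3% and 11.7%. No label says whether a replicate number links a mock array with a treated one, and what the 6 genes share beyond this order was not tested.

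**Figure D4:**
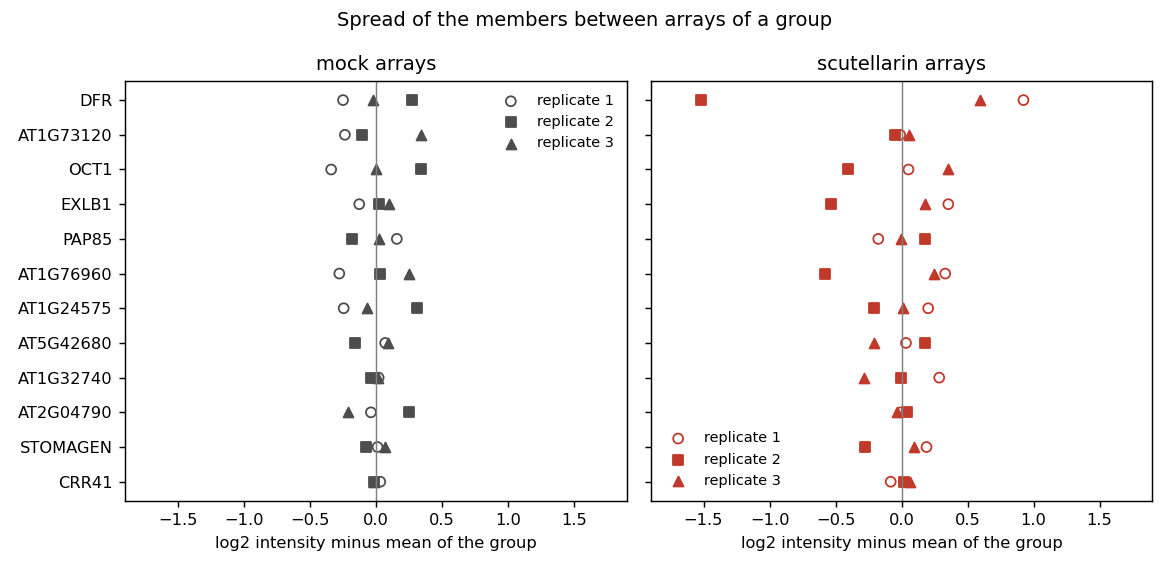
Log2 intensity of each member on each array minus the mean of its group (horizontal axis) for mock (left, grey) and scutellarin arrays (right, red). Replicate 2 of scutellarin is the lowest for 7 members, farthest for DFR, and replicate 1 of mock is the lowest for 6. Among all single-gene nuclear probe sets with at least 200 on every mock array, the shares lowest there were 31.3% and 37.2%.

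By position, 6 of the 12 genes lie on chromosome 1, 2 each on chromosomes 4 and 5, and 1 each on chromosomes 2 and 3. Chromosome 1 held 25.8% of the single-gene nuclear probe sets. In gene order, 11 protein-coding genes separate AT1G73120 from OCT1 (AT1G73220), and 13 separate AT5G42680 from DFR (AT5G42800). Of the 5 measured genes in the first interval none fell and 1 rose, and of the 5 in the second none was called. Over all members, the 5 nearest protein-coding genes on each side made 120 neighbours, most of them not measured. Of the 42 measured neighbours, 3 fell and 4 rose. That is 7.14% fallen, against 8.22% of the 8606 genes measured.

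The measured root markers, 2 of root hairs and 1 of the root as a whole, all rose on the same arrays. The summed intensity of the 2 measured root hair markers of 6, EXPA7 and EXPA18, was 16.5 to 37.9 on mock and 619.5 to 864.2 on scutellarin arrays. PYK10, the only 1 of 7 general root markers that was measured, read 5348.7 to 6010.9 and 9663.1 to 12582.9. Both sets of arrays were far apart for these markers, and their part in the lower levels of the 12 genes was not tested. Over 14 pathway lists with 186 genes, only 25 genes could be measured, of which 10 fell, 2 rose and 13 did not pass, beside 9.11% and 10.3% of all tested probe sets that fell and rose. The 10 included DFR and PAP85, which were selected for being lower. Those not yet named were the auxin genes IAA20 (-2.39 ± 0.55, adjusted p = 0.00972; -1.32 with 32 added before log2) and WES1 (-0.72 ± 0.14, adjusted p = 0.00370). The 2 risers were the dehydrin gene COR47 (1.38 ± 0.18, adjusted p = 0.000262) and the glucosinolate gene UGT74B1 (0.52 ± 0.13, adjusted p = 0.0174), which did not pass when replicate 2 of either group or replicate 3 of mock was left out (adjusted p up to 0.0750).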

How the data were processed

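Transcript levels were read on 6 Affymetrix ATH1 arrays. The deposited values are linear intensities, 1 per probe set and array, made by the authors with MAS5 per the submitters' processing notes. Its version was not stated there. The lowest deposited intensity was 1 on every array, and the mean without the outer 2% at each end lay between 493.9 and 495.1, a shared scaling. Levels of different probe sets were not compared. RefSeq symbols (assembly TAIR10.1) came through gene identifiers for the 13513 probe sets with 1 gene. That table holds no product names, so genes known by number were given no role, and the left-out families were assigned from gene numbers and symbols. Promoter motifs were not analysed here.

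Log2 intensities were compared in limma 3.58.1 (R 4.3.3) with a variance trend, two-sided, over the 15922 probe sets left after dropping the lowest 30% by mean, with Benjamini-Hochberg adjustment. "Fell" and "rose" mean an adjusted p under 0.05. On simulated data with 200 changed probe sets, the model recovered 58% of 2-fold and 92% of 4-fold changes, with 3.85% of calls false. The simulation drew normal noise with variances from the fit's own model. It also changed far fewer probe sets than the 3094 called in the data. These rates may therefore not hold for the data. A gene that did not pass may still differ. A gene was read by its named probe set with the highest mean. The rule for named genes took the 12 largest falls among members, which are all members, the genes at the thresholds, and called genes of each list. Uncalled relatives of members and the markers were named outside it. The members and lists were chosen with earlier results of these data known, and 5 families sharing symbols with members were added after values were seen. The number of arrays, 3 a group, limits the precision. No label says that a replicate number marks a shared experiment, so the main comparison had no block. Deviations of same-numbered arrays correlated at -0.04, -0.09 and 0.11. With 3 arrays a group, these values cannot decide whether the arrays were paired. Alternatives were other normalizations (quantile, median), filters (none, 50%), an added 32, other variance models, the replicate block, each array left out, no cross-hybridising probe sets, and other thresholds. Figures used matplotlib 3.10.9.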

Additional observations from a re-analysis of the deposited data

How the results depend on the processing

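All 12 members kept their direction and an adjusted p under 0.05 in the 15 other limma fits (180 values, adjusted p at most 0.021). Their selection on the same arrays favours this, so it is no separate support. None of the 12 was read by a probe set open to cross-hybridisation. The number of members depended on the thresholds: it was 7 with at least 400 on every mock array, 6 at a gap of 0.4 and 44 at 0.6, a gap chosen after seeing the data, with 19, 14 and 99 probe sets past both thresholds. The added counts that left out 1 array gave 42 to 70 probe sets instead of 34, the highest without scutellarin replicate 2. The count was also 58 without mock replicate 1 and 52 without scutellarin replicate 3. None could fall below 34, because the rule uses the lowest mock and highest scutellarin array, and leaving 1 out only loosens it. After quantile normalization 14 genes and after median centring 16 qualified, all 12 members among both. Over the array, 862 probe sets fell with no variance trend instead of 1450. Leaving out 1 array gave 2009 to 2833 changed probe sets instead of 3094 and 802 to 1437 fallen ones, fewest without mock replicate 2, and 934 and 943 without mock replicate 3 and scutellarin replicate 3. Pathway list genes that rose were 1 to 2 without 1 array, being 1 without mock replicate 2 or 3 or scutellarin replicate 2. The replicate block gave 2921 changed probe sets, 2776 of them shared with the 3094, kept all 12 members and lost the call of RCA (adjusted p = 0.0612, range 0.0234 to 0.405 over its alternatives).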
